A study of Mus musculus with 2 samples.

Results

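The lysosomal genes described here are the subunits of the vacuolar proton pump and a set of lysosomal enzymes and membrane proteins, 40 of the 26078 genes listed in the matrix. They were taken as every gene whose symbol starts with Atp6v or Atp6ap (25 genes) plus 15 named genes: the hydrolases and activators Gaa, Gusb, Glb1, Hexa, Naglu, Man2b1, Neu1, Tpp1 and Psap, the membrane proteins Lamp1, Lamp2, Laptm5, Npc1 and Mcoln1, and the transcription factor Tfeb. Single-cell RNA was measured in non-parenchymal liver cells of 2 untreated male mice aged 8 to 10 weeks, 1 Spta wt/wt and 1 Spta sph/sph littermate. The Spta gene encodes the alpha chain of spectrin, a protein of the red cell skeleton, and the study's question was what red cell uptake does to liver macrophages. Livers were perfused with collagenase, and cells carrying F4/80, a macrophage surface protein, were pulled down with magnetic beads.

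The deposited matrix pools both mice, and each barcode ends in 1 or 2. No label ties either number to a mouse, so values are given for library 1 and library 2 without a genotype, and ratios are library 2 over library 1. Each genotype was 1 mouse, so no difference between the libraries has a replicate check, no test was run, and the 95% intervals cover counting error only. Unique molecular identifiers (UMIs), which count captured transcripts, were summed per cell class and library and expressed per 1000000 UMIs of that class (CPM). Since the assay tags the 3' end of each transcript, CPM is not divided by gene length.

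After filtering, library 1 held 3488 cells with 14117134 UMIs and library 2 held 6942 cells with 45802199 UMIs. Barcode sequences present in both libraries numbered 955, and they made up 872 kept cells (25%) of library 1 and 934 (13.5%) of library 2. Of these, 815 cells of library 1 and 44 of library 2 had over 5 times as many UMIs in the other library and are called shallow shared barcodes. Cells were assigned to classes by marker genes. Kupffer-gated cells, the macrophages that reside in liver sinusoids, numbered 2035 in library 1 and 3429 in library 2 (8529513 and 22721611 UMIs, medians of 3184 and 5638 per cell), of which 503 and 27 were shallow shared barcodes. All 10 of the Kupffer markers were detected in both libraries, and 5 stood among the top 10 genes of the gate. Sinusoidal endothelial-gated cells numbered 294 and 162. Erythroid-gated cells numbered 69 and 748, and since 68 of the 69 were shallow shared barcodes they are described in library 2 only, as are the 27 neutrophil-gated cells. Clec4f, a Kupffer gene, stood at 2.90% to 16.0% of its Kupffer level in the other classes described. It is itself a gate marker, and those classes were limited to under 1% of UMIs on Kupffer markers. Its level there may therefore understate the background from free RNA and mixed droplets. Marco, a gene outside the marker lists, had 48.6 and 2026 CPM in endothelial-gated cells of libraries 1 and 2, against 1079 and 12959 in Kupffer-gated cells.

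Lysosomes break down material taken up by a cell, and their enzymes work at acid pH. The vacuolar proton pump keeps the lumen acid: its V1 sector in the cytosol splits ATP and turns a rotor in the membrane-bound V0 sector, which carries protons across. Several subunits have alternative genes that are used in different tissues. Tfeb and its relatives switch on many lysosomal genes by binding promoter elements built around CACGTG. Kupffer cells take up worn red cells, bacteria and debris from portal blood, and their cargo ends in lysosomes.

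The promoters of several members hold the CACGTG core, and they are shown because this is the sequence that Tfeb and related factors recognise. In windows from 250 bases before to 50 bases after the start site (RefSeq, GRCm38.p6), 32 of the 40 members had a sequence. CACGTG, which reads the same on both strands, occurred in 9 of them (28.1%), against 8.09% of all genes and 12.7% of the genes measured in Kupffer-gated cells. The 9 were Atp6v0b, Atp6v0d1, Atp6v0e, Atp6v1a, Gaa, Glb1, Lamp1, Mcoln1 and Naglu. All 9 also held the longer TCACGTG on either strand, which contains the first motif and occurred in 4.29% of all genes and 7.95% of the measured genes. A still longer motif, with further bases on each side of CACGTG, occurred in 0 of the 32 members. It occurred in 0.37% of all genes and 0.990% of the measured genes. The 32 include members that were not measured in Kupffer-gated cells, such as Atp6v0a4 and Atp6v1b1. Stretches of 30 bases from 7 of the 9 promoters with CACGTG are given 5' to 3' on the gene's strand, with 1 CACGTG in capitals. Lamp1 had 4 such sites in its window, of which the first and the last are shown, and Atp6v0b and Mcoln1 had 2 each, of which 1 is shown.
Atp6v1a (chr16:44139373-44139402, minus strand): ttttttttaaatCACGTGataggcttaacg
Atp6v0b (chr4:117887348-117887377, minus strand): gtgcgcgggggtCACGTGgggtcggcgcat
Lamp1, first site (chr8:13159088-13159117, plus strand): agggcaagatatCACGTGgtccagcgccca
Lamp1, last site (chr8:13159134-13159163, plus strand): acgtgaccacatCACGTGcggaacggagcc
Mcoln1 (chr8:3500462-3500491, plus strand): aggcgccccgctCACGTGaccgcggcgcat
Glb1 (chr9:114401018-114401047, plus strand): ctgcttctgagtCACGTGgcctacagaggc
Gaa (chr11:119267811-119267840, plus strand): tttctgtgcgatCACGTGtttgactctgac
Naglu (chr11:101070009-101070038, plus strand): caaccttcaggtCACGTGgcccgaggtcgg
A match is a description of the letters in this window and does not show binding.

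In Kupffer-gated cells, most pump genes and several hydrolases had moderately higher levels in library 2, while Lamp2, Laptm5, Man2b1, Mcoln1, Atp6v0a2 and Atp6v0e2 were lower. At 10 CPM or more, 31 of the 40 members were measured, 16 of the 25 pump genes and all 15 of the others, and all 31 reached that level in both libraries. None of the 31 differed by 2-fold or more in either direction, against 2.49% of 8183 measured genes at least 2-fold higher and 9.13% at least 2-fold lower. The ratio was above 1 for 24 of the 31, and its interval excluded 1 upward for 21 and downward for 6. The median log2 ratio of the members was 0.24, of the 16 pump genes 0.32 and of the other 15 genes 0.11, while the median over all measured genes was -0.31. Genes at 50 CPM or more in both libraries had a median of -0.18, so relative to the median gene of that set every value that follows is higher by 0.18. On that scale 26 of the 31 were above 1. Median mitochondrial shares in this gate were 12.8% and 12.3%, and globin made up 0.226% of UMIs in library 1 and 4.27% in library 2. The part of depth and globin RNA in these differences was not tested.

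The summed level of the 25 pump genes in Kupffer-gated cells was 3223 CPM (3185 to 3261) in library 1 and 4128 (4102 to 4155) in library 2, a log2 ratio of 0.36 (0.34 to 0.38). Without the shallow shared barcodes it was 0.38, and relative to the median gene 0.54. The sum leaves out Tcirg1, a pump subunit gene with another kind of symbol, which had 144 and 159 CPM. The other 15 genes summed to 10175 and 11072 CPM, a log2 ratio of 0.12 (0.11 to 0.13) with and 0.12 without the shallow shared barcodes. That value was 0.067 with at most 10% mitochondrial UMIs per cell, 0.070 with clusters of cells in place of the gate and 0.30 relative to the median gene. Psap alone supplied much of the sum: without it the other 14 genes had 5617 and 5549 CPM (log2 ratio -0.02), which turned to 0.16 relative to the median gene. For comparison, the summed mitochondrial ATP synthase, another rotary proton complex, had 3433 and 4558 CPM (log2 ratio 0.41). Counted in the same cells, the pump had 0.939 UMIs (0.923 to 0.954) per ATP synthase UMI in library 1 and 0.906 (0.898 to 0.914) in library 2. The pump was thus higher per total UMI but lower per ATP synthase UMI in library 2. The hydrolase and membrane protein group went from 2.96 to 2.43 UMIs per ATP synthase UMI.

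**Figure D1:**
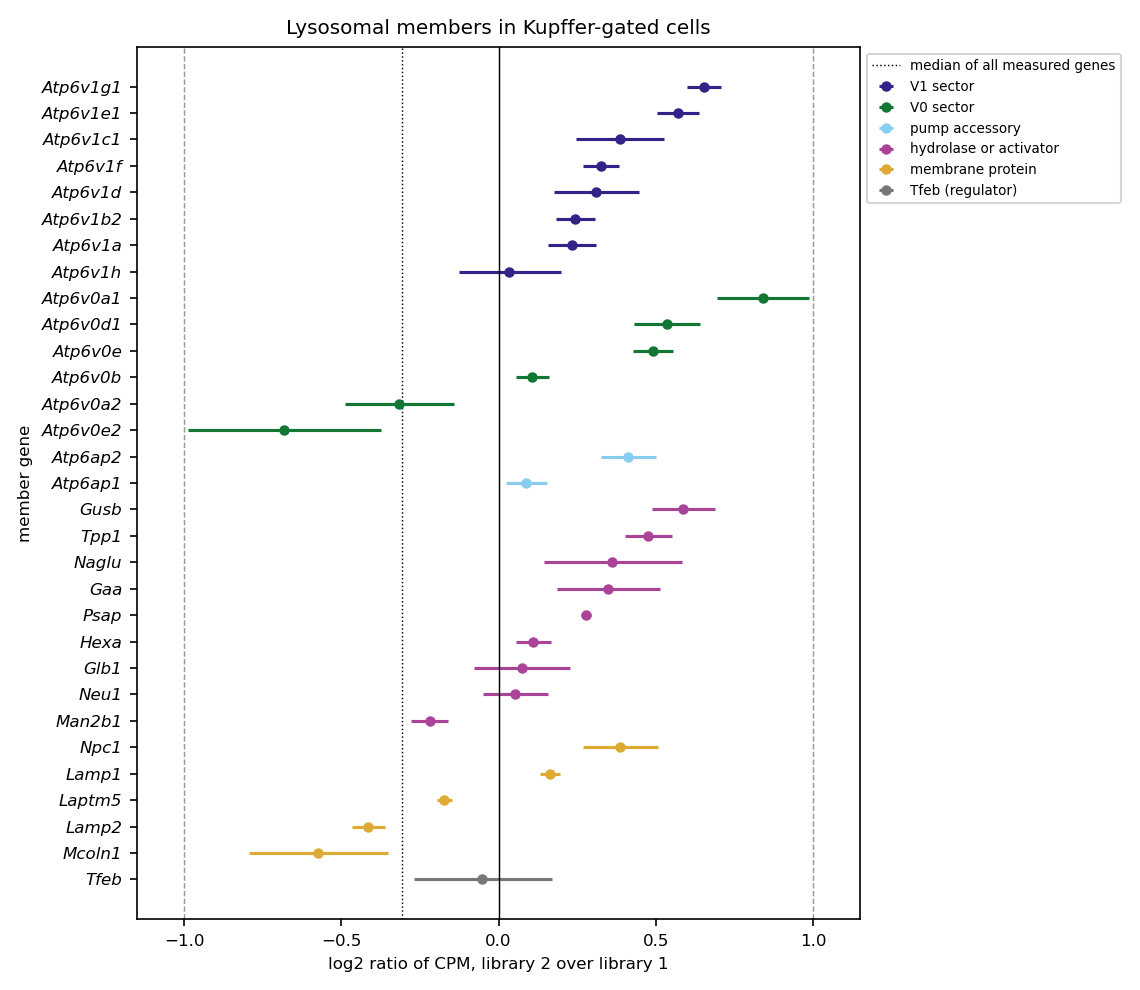
Log2 ratio of CPM, library 2 over library 1, for the 31 measured members in Kupffer-gated cells, with exact 95% counting intervals, coloured by role. The dotted line is the median of all measured genes (-0.31), the dashed lines mark 2-fold, and no member passes them.

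The V1 sector summed to 1792 CPM in library 1 and 2393 in library 2 (log2 ratio 0.42), and 7 of its 8 measured genes had an interval above no difference. Atp6v1g1, a subunit of the peripheral stalk, had 416 CPM in library 1 and 654 in library 2, a log2 ratio of 0.65 (0.60 to 0.71). Atp6v1e1, its stalk partner, had 275 and 408 CPM (0.57, 0.51 to 0.64). The catalytic subunit Atp6v1a had 217 and 256 CPM, and the nucleotide-binding subunit Atp6v1b2 had 312 and 370. Their log2 ratios of 0.23 and 0.24 were close to each other. Atp6v1f and Atp6v1d, which belong to the central rotor, had ratios of 0.33 and 0.31, and Atp6v1c1, which links the stalks to V0, had 0.39. Atp6v1h, a regulatory subunit, had 49.7 and 50.9 CPM (0.03, -0.13 to 0.20) and was the 1 measured V1 gene whose interval included no difference.

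In the V0 sector the subunit genes differed among themselves in direction. Atp6v0a1 (chromosome 11, 101009452 to 101063719, GRCm38), which encodes an a subunit that lines the proton path, had 53.7 CPM (48.9 to 58.8) in library 1 and 96.1 (92.1 to 100.2) in library 2. Its log2 ratio of 0.84 (0.69 to 0.99) was the highest of the 31 members, and it was 1.02, past 2-fold, relative to the median gene. Atp6v0a2, encoding another a subunit, had 47.2 and 37.9 CPM (-0.32, -0.49 to -0.14). Atp6v0d1, which couples the rotor to V1, had 110 and 160 CPM (0.54), and Atp6v0e had 308 and 432 (0.49). Its alternative Atp6v0e2 had 16.9 and 10.5 CPM (-0.68, -0.99 to -0.37), the lowest ratio of the 31. Atp6v0b, a proton-carrying subunit of the ring, had 445 and 479 CPM (0.11). Atp6v0c, the main ring subunit, had only 25 and 35 UMIs. The annotation shows that 1 of its 3 coding transcripts shares all 50-base windows of its last 300 bases with the pseudogene Atp6v0c-ps2, so its level is uncertain. The accessory proteins Atp6ap1 and Atp6ap2 had 289 and 307 CPM (0.09) and 158 and 210 CPM (0.41).

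Of the 9 members that were not measured, 5 had no UMI in Kupffer-gated cells of either library: Atp6ap1l, Atp6v0a4, Atp6v1b1, Atp6v1c2 and Atp6v1e2. In ratios a count of 0 was replaced by a floor of 3 UMIs, equal to 0.352 CPM in library 1 and 0.132 CPM in library 2. A count of 0 does not show that a gene is absent. The other 4, Atp6v0c, Atp6v0d2, Atp6v1g2 and Atp6v1g3, had few UMIs. Among alternative subunit genes, Atp6v0d1 held 99.5% and 99.7% of the d-subunit UMIs, and Atp6v1g1 held 98.97% and 99.52% of those for G. In the pairs for B, C and E every UMI fell on Atp6v1b2, Atp6v1c1 and Atp6v1e1. The e pair was less one-sided, with Atp6v0e2 at 5.20% (4.405 to 6.096) of e-subunit UMIs in library 1 and 2.38% (2.09 to 2.69) in library 2. The a subunit had no such dominant gene.

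Psap (chromosome 10, 60277627 to 60302597), the precursor of the saposins that present lipids to hydrolases, was the most abundant member, at 4557 CPM in library 1 and 5523 in library 2 (log2 ratio 0.28, 0.26 to 0.29). Of the enzymes that cut sugar chains, Gusb (beta-glucuronidase) had 119 and 179 CPM (0.59, 0.49 to 0.69), Gaa (acid alpha-glucosidase, which degrades glycogen) had 46.5 and 59.3 CPM (0.35) and Naglu, which degrades heparan sulfate, had 26.0 and 33.5 CPM (0.36). Naglu lies just downstream of Atp6v0a1 on the same strand of chromosome 11 (101070012 to 101077672). Hexa (the alpha chain of beta-hexosaminidase) had 430 and 464 CPM (0.11). Glb1 (beta-galactosidase, 0.07) and Neu1 (sialidase, 0.05) had intervals that included no difference. Man2b1 (lysosomal alpha-mannosidase) was lower in library 2, with 381 and 328 CPM (-0.22, -0.28 to -0.16). The peptidase Tpp1 had 219 and 304 CPM (0.48, 0.40 to 0.55). Hydrolases and activators together had 5957 and 7076 CPM (0.25), and 1400 and 1553 without Psap (0.15).

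The membrane proteins had ratios on both sides of 1. Lamp1 (chromosome 8, 13159161 to 13175338) and Lamp2 (chromosome X, 38401357 to 38456454) are the main glycoproteins of the lysosomal membrane. Lamp1 had 1267 and 1419 CPM (0.16, 0.13 to 0.19), whereas Lamp2, which also serves chaperone-mediated autophagy, had 532 and 399 CPM (-0.41, -0.47 to -0.36). Lamp1 accordingly held 70.4% (69.7 to 71.1) of the UMIs of the pair in library 1 and 78.0% (77.6 to 78.4) in library 2. Laptm5, a lysosomal protein of blood cells, had 2274 and 2018 CPM (-0.17), which turned to 0.0080 relative to the median gene. Npc1, which exports cholesterol from lysosomes, had 85.6 and 112 CPM (0.39). Mcoln1, a calcium channel of the lysosomal membrane, had 31.2 and 20.9 CPM (-0.57, -0.79 to -0.35). Together the 5 membrane proteins had 4190 and 3969 CPM (-0.08), and the sign turned to 0.10 relative to the median gene. Tfeb itself had 28.0 and 27.0 CPM (-0.05, -0.27 to 0.17). The 9 members with a CACGTG promoter ranged from -0.57 (Mcoln1) to 0.54 (Atp6v0d1).

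Leaving out the shallow shared barcodes moved the members' log2 ratios by at most 0.052, and turned the sign of Atp6v1h alone, from 0.03 to -0.0016. Over all the alternatives run, 21 members stayed above 0 and 5 below 0, and the exceptions were Atp6v1h, Glb1, Neu1, Laptm5 and Tfeb.

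Other lysosomal genes were compared in the same way, and the median of each list was below that of the members. Over all 8183 measured genes, against which each list here and below is set, 2.49% were at least 2-fold higher and 9.13% lower. Of 29 measured hydrolases and activators outside the 40, 2 were at least 2-fold higher in library 2 and 0 lower, with a median log2 ratio of -0.05. The acid phosphatase Acp5 had 307 and 685 CPM (1.16) and was 1 of the 2. Gla (alpha-galactosidase A) was the other, with 6.92 and 29.9 CPM (2.11), and is named after its values were seen. Below 2-fold, Lipa (lysosomal acid lipase) had 435 and 770 CPM (0.82), and Hgsnat had 127 and 206 (0.70). Acp2, another acid phosphatase, had 473 and 327 CPM (-0.53). Of 27 measured membrane proteins, transporters and channels, 2 were at least 2-fold higher and 0 lower, with a median of -0.09. These were the heme transporter Slc48a1, with 185 and 553 CPM (1.58), and Cd63, with 13.0 and 99.4 CPM (2.93). Cd63 is uncertain, since 58.7% of the windows at its transcript ends also occur in the pseudogene Cd63-ps.

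Of 10 measured pump genes and assembly factors outside the Atp6 symbols, 1 was at least 2-fold higher and 1 lower, with a median of -0.11. The first was Dmxl2 (11.0 and 23.7 CPM) and the second Rogdi (33.2 and 6.21 CPM), both named after their values were seen. Tcirg1, which encodes the a3 subunit, had 144 and 159 CPM (0.15). Among 21 measured genes of transcriptional and nutrient control, 1 was at least 2-fold higher (Rragd, 2.11 and 12.2 CPM) and 1 lower (Myc, 19.5 and 8.10 CPM), again named after their values were seen, and the median was 0.08. Tfe3, a relative of Tfeb, had 158 and 90 CPM (-0.81), and Zkscan3, described as a repressor of lysosomal genes, had 89 and 50 CPM (-0.83). Of the Ragulator subunits, which anchor nutrient sensing to the lysosome, Lamtor2, Lamtor3, Lamtor4 and Lamtor5 had log2 ratios of 0.51, 0.42, 0.50 and 0.69, and Lamtor1 had -0.016 (-0.12 to 0.09).

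The next comparison asked where in the liver suspension these genes were most abundant. Kupffer-gated cells had the highest summed pump level of the 8 classes present in both libraries, in each library. Monocyte-gated cells had 2537 CPM (2404 to 2677) in library 1 and 2775 (2639 to 2917) in library 2, and sinusoidal endothelial-gated cells, which line the vessels and also take up waste, had 2118 and 2345. Conventional dendritic-gated cells had 1902 and 2061, Cx3cr1 macrophage-gated cells 2336 and 1998, and stellate or fibroblast-gated cells 1789 and 1513. B-gated and T or natural killer-gated cells had 1584 and 1578 in library 1 and 1596 and 1743 in library 2, with overlapping intervals. The stellate or fibroblast gate had none of its markers among its top 10 genes, and globin made up 30.2% of its UMIs in library 2.

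The hydrolase and membrane protein group summed to 8162 and 8080 CPM in monocyte-gated, 9612 and 8541 in Cx3cr1 macrophage-gated and 8553 and 7496 in conventional dendritic-gated cells, so that the Kupffer level was 1.06-fold to 1.48-fold that of these classes. Endothelial-gated cells had 4146 and 4674, stellate or fibroblast-gated cells 4654 and 3975, B-gated cells 2601 and 3320, and T or natural killer-gated cells 2663 and 3719. The highest place depended on the genes summed. For the 9 hydrolases and activators alone, library 1 had 7035 CPM in Cx3cr1 macrophage-gated and 6941 in dendritic-gated cells, against 5957 in Kupffer-gated cells. In library 2 these levels were 6172, 6023 and 7076. The order below the Kupffer level in the sum of 15 genes depended on Psap. Without it, Kupffer-gated cells had 5617 and 5549 CPM, monocyte-gated 3189 and 3235, Cx3cr1 macrophage-gated 3710 and 3269, and conventional dendritic-gated 2422 and 2266. Endothelial-gated cells then had 2732 and 2658, above the dendritic-gated cells in each library, and stellate or fibroblast-gated cells 2915 and 2151. The Kupffer level without Psap was 1.51-fold to 2.45-fold that of the monocyte, Cx3cr1 macrophage and dendritic gates. Per ATP synthase UMI, the pump had 0.939 and 0.906 UMIs in Kupffer-gated cells, 0.637 and 0.604 in endothelial-gated cells and 0.510 and 0.473 in monocyte-gated cells. Stellate or fibroblast-gated cells had 0.662 (0.532 to 0.822) and 0.765 (0.661 to 0.885). The Kupffer value stood above the intervals of the other classes by this measure too, in both libraries.

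**Figure D2:**
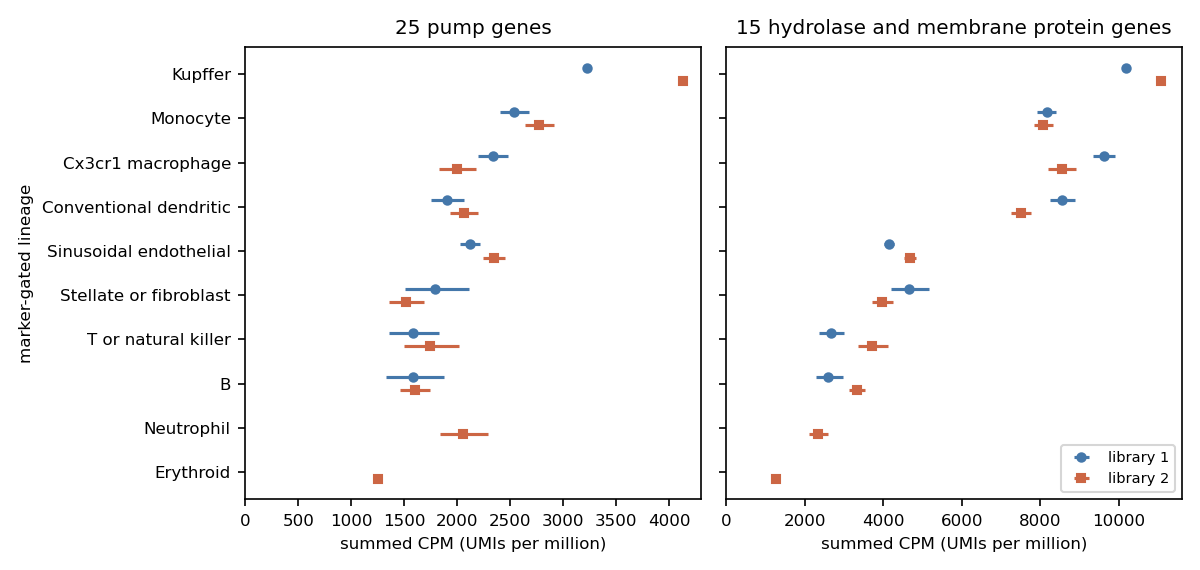
Summed CPM of the 25 pump genes (left) and of the 15 hydrolase and membrane protein genes (right) by marker-gated class, with exact 95% Poisson intervals. Circles are library 1 and squares library 2, and the Kupffer values (3223 and 4128, 10175 and 11072) are the highest in each panel for their library.

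The members were also set against the other phagocyte gates. The Cx3cr1 macrophage and dendritic marker lists share Cd209a, which stood among the top 10 genes of the Cx3cr1 macrophage gate in both libraries. These gates may therefore share cell types. In each library the top 10 of the conventional dendritic gate held its markers Xcr1 and Itgae, and Ccr9 from the plasmacytoid dendritic list. Against monocyte-gated cells in library 1, 6 of 31 were at least 2-fold higher in Kupffer-gated cells, against 18.1% of all genes, and 1 lower, against 13.7%, while in library 2 the counts were 6, against 14.0%, and 0, against 16.9%. Against Cx3cr1 macrophage-gated cells, 5 were higher and 0 lower in library 1 (all genes 12.5% and 12.2%), and 14 were higher and 2 lower in library 2 (17.1% and 17.0%). That gate held only 76 and 43 cells with 470059 and 258761 UMIs, so genes of low level rest on few UMIs there. Conventional dendritic-gated cells stood further apart: 16 members were at least 2-fold higher in Kupffer-gated cells in library 1 and 19 in library 2 (all genes 23.7% and 23.4%), and 1 was lower in each (14.6% and 15.5%). Lamp1, with 186 and 241 CPM in dendritic-gated cells, and Tpp1, with 18.9 and 31.5, were among the higher ones, and Atp6v0a2, with 170 and 153, was the lower one.

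Against sinusoidal endothelial-gated cells, the pump was 1.52-fold (1.45 to 1.59) higher in Kupffer-gated cells in library 1 and 1.76-fold (1.68 to 1.84) in library 2, and the other group 2.45-fold (2.38 to 2.53) and 2.37-fold (2.29 to 2.45). In library 1, 10 of 31 measured members were at least 2-fold higher, against 13.2% of all genes, and 2 were lower, against 24.7%. In library 2, 12 of 31 were higher, against 13.8%, and 1 was lower, against 24.1%. Laptm5 differed most, with 158 and 360 CPM in endothelial-gated cells against 2274 and 2018 in Kupffer-gated cells. Hexa had 140 and 181 CPM against 430 and 464, and Atp6v1b2 had 82.8 and 132 against 312 and 370. Clec4f in the endothelial gate was at 3.84% and 10.7% of its Kupffer level.

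Some members were higher in endothelial-gated cells. Lamp2 had 961 and 598 CPM there against 532 and 399 in Kupffer-gated cells, so that Lamp1 held 41.6% (39.2 to 44.1) and 58.4% (55.5 to 61.2) of the pair. Atp6v0a2 had 135 and 101 CPM against 47.2 and 37.9, at least 2-fold higher in each library. Atp6v0a1 changed sides: it had 127 CPM in endothelial-gated against 53.7 in Kupffer-gated cells in library 1, and 61.0 against 96.1 in library 2. Tpp1 was higher there in library 1 only, with 313 CPM against 219. In library 2 it had 299 against 304, a log2 ratio of Kupffer-gated over endothelial-gated cells of 0.02 (-0.16 to 0.21). Between the libraries, endothelial-gated cells had Laptm5 at least 2-fold higher in library 2, against 5.66% of genes, and Man2b1 (165 and 74.4 CPM) and Atp6v0a1 at least 2-fold lower, against 16.9%. Relative to Kupffer-gated cells, Clec4f in the endothelial gate also differed between the libraries, at 3.84% and 10.7%. The part of Kupffer RNA in the Laptm5 difference was not tested. The pump sum of endothelial-gated cells had a log2 ratio of 0.15 (0.06 to 0.24).

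**Figure D3:**
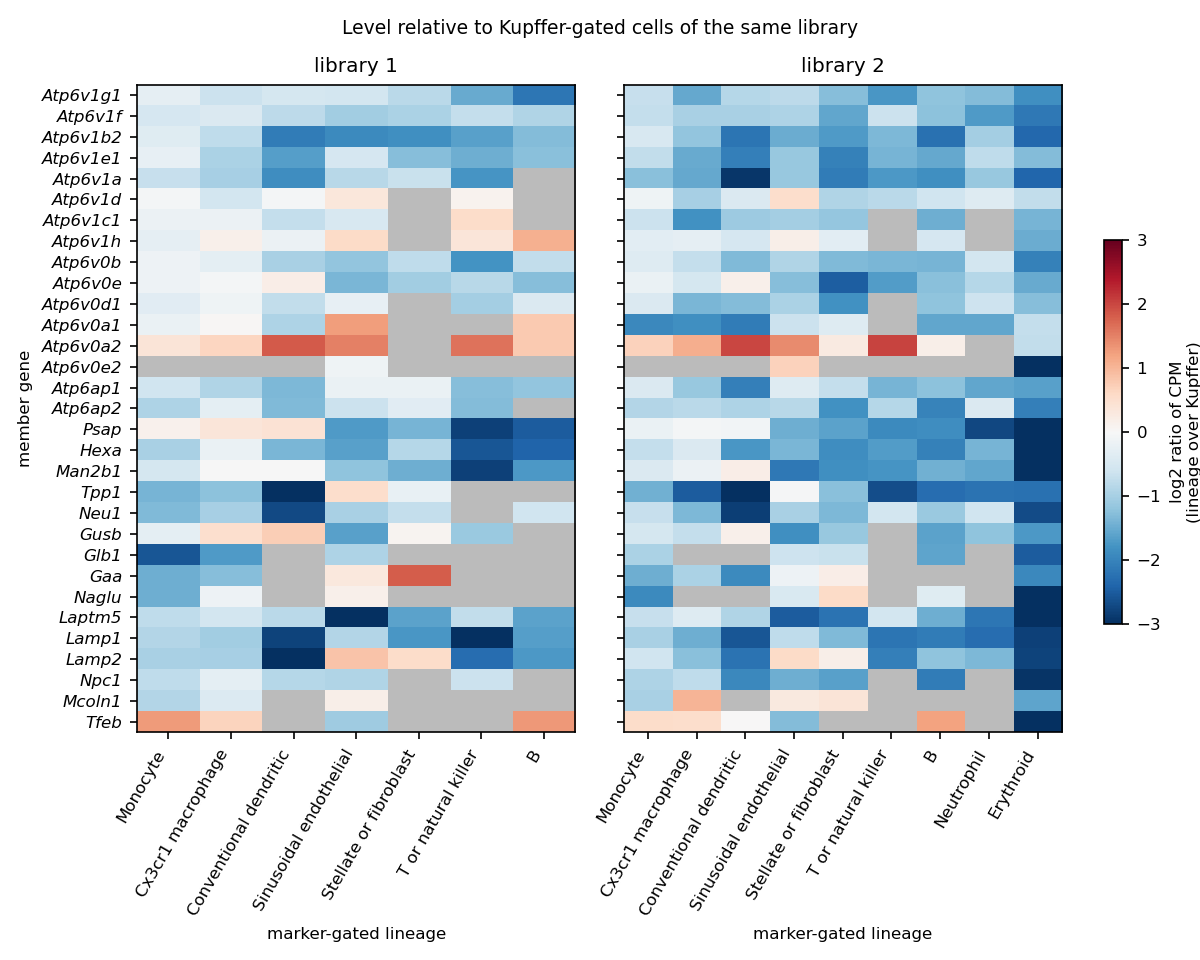
Log2 ratio of each member's CPM in a class over Kupffer-gated cells of the same library (red higher, blue lower, colours end at 8-fold). Grey marks fewer than 5 UMIs in the class. Most squares are blue, while Atp6v0a2 is red in dendritic-gated, endothelial-gated and T or natural killer-gated cells in both libraries. Its CPM was also above the Kupffer level in monocyte-gated, Cx3cr1 macrophage-gated and B-gated cells of both libraries. In library 2 the Kupffer level of Atp6v0a2 was the lowest of the 8 classes present in both libraries.

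Member by member, 17 of the 31 were highest in Kupffer-gated cells of the 8 classes in library 1, 19 in library 2 and 15 in both, of which 9 were pump genes. Lamp1, Laptm5, Hexa, Glb1, Neu1 and Npc1 were the other 6. Psap was highest in conventional dendritic-gated cells in library 1 (6131 CPM, 5862 to 6410) and in Kupffer-gated cells in library 2. Atp6v0e was highest in conventional dendritic-gated cells in both (353 and 480 CPM, from 112 and 213 UMIs), against 308 and 432 in Kupffer-gated cells. Gusb was also highest in the dendritic gate, at 198 and 200 CPM against 119 and 179 in Kupffer-gated cells. Gaa was highest in stellate or fibroblast-gated cells, at 163 and 68.4 CPM against 46.5 and 59.3. The dendritic gate held 29 and 45 cells and the stellate or fibroblast gate 35 and 60, so small margins are uncertain. Tfeb was highest in B-gated cells, at 69.4 and 62.1 CPM from few UMIs, with 67.8 and 39.3 in monocyte-gated cells.

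The a-subunit genes, whose products help to direct the pump to its membrane, were used in different proportions. In Kupffer-gated cells Tcirg1 held 58.7% (56.6 to 60.8) of a-subunit UMIs in library 1 and 54.3% (53.1 to 55.5) in library 2. Atp6v0a1 held 22.0% (20.2 to 23.8) and 32.8% (31.7 to 33.9), and Atp6v0a2 held 19.3% (17.6 to 21.1) and 12.9% (12.1 to 13.8). Endothelial-gated cells had less Tcirg1, 15.9% (11.998 to 20.6) and 26.1% (19.9 to 33.2), and more Atp6v0a2, 43.2% and 46.1%. In conventional dendritic-gated cells Atp6v0a2 held 66.7% (55.3 to 76.8) and 62.4% (52.6 to 71.5). Monocyte-gated and Cx3cr1 macrophage-gated cells resembled Kupffer-gated cells in having Tcirg1 as the leading gene, at 42.0% and 62.2%, and at 59.1% and 50.9%, though in monocyte-gated cells of library 1 and Cx3cr1 macrophage-gated cells of library 2 its interval overlapped that of Atp6v0a2 (33.0% and 36.8%). Erythroid-gated cells of library 2 had mostly Atp6v0a1, 59.1% (55.8 to 62.3). These shares do not depend on the scaling to total UMIs.

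**Figure D4:**
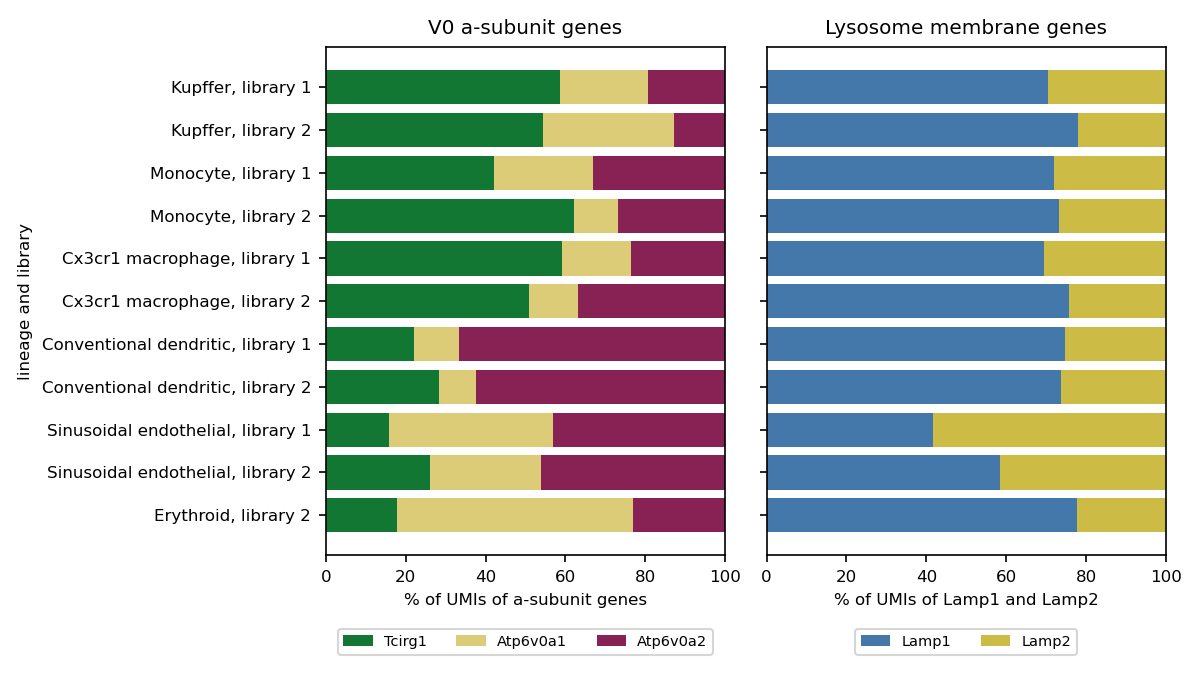
Shares of UMIs among the a-subunit genes (left) and between Lamp1 and Lamp2 (right) by marker-gated class and library. Tcirg1 leads in the Kupffer-gated bars (58.7% and 54.3%), Atp6v0a2 in the dendritic-gated bars (66.7% and 62.4%) and Atp6v0a1 in the erythroid-gated bar (59.1%).

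Erythroid-gated cells of library 2, red cell precursors or red cells with residual RNA, had the lowest levels of both groups. The pump summed to 1248 CPM (1225 to 1271), and Kupffer-gated cells were 3.31-fold (3.24 to 3.37) higher. The hydrolase and membrane protein group summed to 1257 CPM, and Kupffer-gated cells were 8.81-fold (8.65 to 8.98) higher. Of 31 members, 28 were at least 2-fold higher in Kupffer-gated cells, against 36.4% of all genes, and 0 were lower, against 22.2%. The 3 others were the pump genes Atp6v0a1, Atp6v0a2 and Atp6v1d, with ratios of 1.65 to 1.67. Man2b1 was 12.7-fold, Hexa 11.9-fold and Psap 9.88-fold higher in Kupffer-gated cells. Globin made up 25.2% of the UMIs of the erythroid gate, and Clec4f stood at 4.93% of its Kupffer level. Per ATP synthase UMI, erythroid-gated cells had 0.199 pump UMIs (0.195 to 0.203) and 0.201 of the other group, against 0.906 and 2.43 in Kupffer-gated cells of the same library.

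Some counts carry a limit from the annotation. Lamp1, Hexa, Npc1, Atp6v0b, Atp6v0a2, Atp6v1b2, Atp6v1e1 and Atp6v1h overlap a gene on the opposite strand, and Glb1 overlaps Tmppe on its own strand. No source used here states whether counting used the strand, so reads of these pairs may be mixed.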

How the data were processed

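The authors deposited 1 matrix of raw UMI counts. The submitters' processing notes name Cell Ranger 3.0.1, GRCm38.p5 and R 3.6.1, and no source used here gives the annotation release. Barcodes needed 200 or more genes and no more than 20% mitochondrial UMIs. The Kupffer gate required at least 5 of 10 markers and 1.5% of UMIs on them, and fewer than 4 markers of any other list apart from the Cx3cr1 macrophage and hepatocyte lists. Other classes required at least 4 own markers and under 1% of UMIs on Kupffer markers. Their own markers also had to outnumber those of any other list apart from the Kupffer and hepatocyte lists. Hepatocytes, not used, had their own limits. The marker lists stood in the design and the gate was set after seeing the data. No doublet caller was run. Droplets passing the Kupffer limits with 4 or more markers of another list were set aside (195 in library 1, 474 in library 2).

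Sums of UMIs over the cells of each class in each library were scaled to CPM. Levels carry exact Poisson, ratios conditional exact and shares Clopper-Pearson 95% intervals, which cover counting error only. A gene counted as measured at 10 CPM in either group and as higher or lower at 2-fold. The ratio code was tested on simulated data. All 40 members could be named, and other lysosomal genes at 50 CPM and 30 UMIs in either library. Exceptions are marked. Members and lists were chosen with earlier results of these data known. Positions come from GENCODE M21 and promoters from RefSeq. The alternatives changed the mitochondrial limit, genes per cell, gate, scaling, level minimum and shallow shared barcodes. Figures used matplotlib 3.10.9, clusters scikit-learn 1.9.0 and intervals scipy 1.17.1, under python 3.11.15 with pandas 2.3.3 and numpy 2.4.6.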

Additional observations from a re-analysis of the deposited data

How the results depend on the processing

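In Kupffer-gated cells, the count of members at least 2-fold lower in library 2 was 0 in every alternative, and the count at least 2-fold higher was 0 except relative to the median gene, where it was 1 (Atp6v0a1). The log2 ratio of the pump sum between libraries (0.36) was 0.41 with at most 40% mitochondrial UMIs, 0.38 without shallow shared barcodes, 0.31 with clusters in place of the gate, 0.41 when scaled without mitochondrial, globin and ribosomal protein UMIs, 0.25 with every cell weighing the same and 0.54 relative to the median gene. The hydrolase and membrane protein sum (0.12) was 0.067 with at most 10% and 0.18 with at most 40% mitochondrial UMIs, 0.070 with clusters, 0.18 with the reduced scaling, 0.10 with every cell weighing the same and 0.30 relative to the median gene. Kupffer-gated over endothelial-gated, the pump (0.61 in library 1 and 0.82 in library 2) had 0.51 and 0.89 with at most 10% mitochondrial UMIs, 0.76 and 0.73 with every cell weighing the same, 0.61 in library 2 with clusters, 0.71 in library 2 with the reduced scaling and 0.68 in library 1 relative to the median gene. The other group (1.30 and 1.24) had, in library 2, 1.30 with at most 10% mitochondrial UMIs, 1.01 with clusters, 1.13 with the reduced scaling and 1.14 with every cell weighing the same, and in library 1, 1.37 relative to the median gene. Of 279 values of single members under alternatives, 191 stayed within the counting interval, 87 moved beyond it and 1 turned the sign of a ratio whose interval excluded no difference: Laptm5, from -0.17 to 0.0080 relative to the median gene. Ratios whose intervals included no difference changed sign in 3 alternatives for Atp6v1h (down to -0.21), 4 for Tfeb and 1 each for Glb1 and Neu1. The cause of these shifts was not tested.

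No paired analysis was possible because each genotype was 1 mouse and no label ties a library to it. With 1 library per genotype, leaving out a replicate does not apply. Depth limits the small classes: dendritic, B, T or natural killer and stellate or fibroblast gates held 26 to 71 cells per library. The Cx3cr1 macrophage gate held 76 cells in library 1 and 43 in library 2.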

Other observations

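Globin RNA varied widely among the Kupffer-gated cells of library 2, and the lysosomal genes were compared across it. The cells were split at the median globin share of 1.31%, and levels were expressed per 1000000 UMIs other than globin. The 1714 cells above the median had 4294 CPM (4252 to 4336) of pump transcripts and the 1715 others had 4326 CPM (4289 to 4363), a log2 ratio of -0.01 (-0.03 to 0.01). The hydrolase and membrane protein group had 11644 and 11506 CPM (0.02). None of the 31 measured members differed by 2-fold, against 0.343% of 7582 measured genes higher and 0.0396% lower in the globin-rich cells. Hmox1, the heme-degrading enzyme, had 8982 and 8249 CPM. The globin-rich cells were shallower, with a median of 4447 UMIs against 6318. Cells of 1 library are not replicates, and whether globin reads here mark uptake or free RNA was not tested.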
